A study of Rattus norvegicus with 20 samples.

Results

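Liver expression at the lowest dose of triphenyl phosphate was examined in 8 of the 20 arrays of the series. The 3 arrays of rats given 55 mg/kg were compared with the 5 arrays of rats given vehicle. Triphenyl phosphate, an organophosphate ester, serves as a plasticiser and flame retardant. All rats were male Harlan Sprague Dawley rats dosed by oral gavage in corn oil, and the vehicle group received corn oil with 0 mg/kg of the chemical. Dosing ran for 4 consecutive days, the liver was taken on day 5, and 55 mg/kg corresponds to 0.169 mmol/kg. The 110, 220, 440 and 881 mg/kg groups, with 3 arrays each, served to place the lowest dose among the others. The labels used here state neither ages nor the hours of dosing and sampling. No label says that every array is a different rat, so the p-values speak to the spread among arrays, part of which may be technical. For each of 14217 genes, the brightest probe set (highest average over the 20 arrays) was used.

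As background, the liver meets foreign chemicals through receptors such as CAR, PXR and the aryl hydrocarbon receptor (AhR) and through the antioxidant factor NRF2, which raise the transcription of oxidases, esterases, transferases and efflux pumps. The liver also keeps a circadian clock. In it, Bmal1 with Clock or Npas2 forms the activating arm, and the Per and Cry proteins and the Rev-erb receptors Nr1d1 and Nr1d2 form the repressing arms. The factors Dbp, Tef and Hlf, opposed by Nfil3, carry the rhythm to metabolic genes.

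At 55 mg/kg, 400 of 14217 genes (2.81%) passed an adjusted p under 0.05 in limma, which is what "called" means here, and "rose" and "fell" are used of called genes. Of these, 275 rose (1.93%) and 125 fell (0.879%). The rises were led by the clock-output factor Dbp, the steroid dehydrogenase Hsd17b2 and the Rev-erb gene Nr1d1, and the falls by the cell-cycle inhibitor Cdkn1a, the immediate early factor Egr1 and the taurine transporter Slc6a6. Most changes were small. The median log2 change was 0.45 among genes that rose and -0.62 among those that fell, and 20 genes rose and 14 fell at least 2-fold (a log2 change of 1). The median over all genes was 0.013. Of the genes that rose, 268 had all 3 dosed arrays above all 5 vehicle arrays, an order found in 9.33% of all genes, and 119 of those that fell had the reverse order, found in 4.26%. The split leaned on the scaling: it was 204 higher and 153 lower after each array was centred on its median, and 213 higher and 184 lower after a further quantile normalization.

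**Figure D1:**
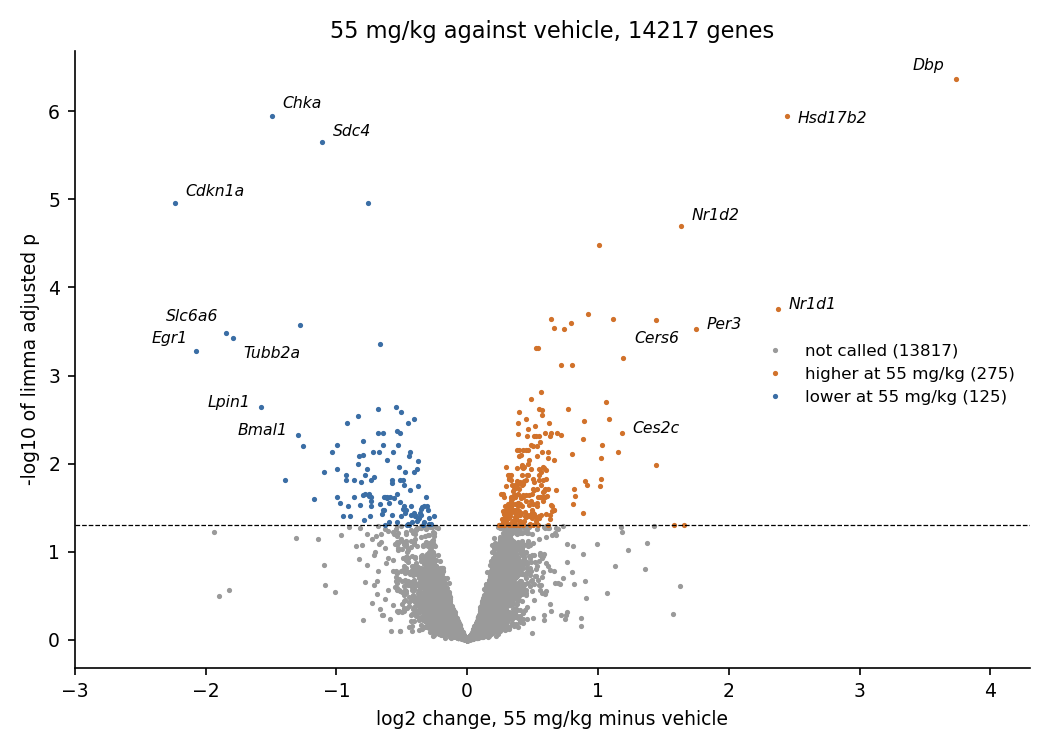
Log2 change at 55 mg/kg minus vehicle (horizontal axis) against -log10 of the limma adjusted p (vertical axis) for 14217 genes, with the dashed line at 0.05; orange points rose (275), blue points fell (125) and grey points were not called. Dbp stands alone at the right with a log2 change of 3.74, and Cdkn1a lies farthest to the left among called genes at -2.24.

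The count of called genes rested on single arrays more than the leading genes did. It was 193, 127 and 158 without 55 mg/kg replicates 1, 2 and 3 (the "dosed replicates" below), and 221 without vehicle replicate 2 as well as without vehicle replicate 4. It was 648 without 881 mg/kg replicate 2, an array that entered only through the shared estimate of the spread. That array stood apart in the Gapdh 3' minus 5' signal difference, at 5.24 on the log2 scale against 0.81 to 1.64 on the other 19 arrays. Of the 81 called genes described by name, 28 were called under each of the alternatives run for them. They are Dbp, Nr1d1, Nr1d2, Per3, Cry2, Tef, Bmal1, Hsd17b2, Cers6, Pdzrn3, Ces2c, Amacr, Cdkn1a, Chka, Sdc4, Egr1, Slc6a6, Tubb2a, Lpin1, Lgalsl, Syne1, Avpr1a, Cyp2c22, Tpst2, Mdn1, Nol8, Tsr1 and Mphosph6. The other 53 lost their call under at least 1 alternative. None changed direction, but the alternatives reused the same arrays with at most 1 left out, so a reversal was unlikely from the start.

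Of the 38 lists, which were chosen with earlier results of these data known, that of the clock held the most called genes. Its counts are given as a description. Of 18 measured clock genes, 6 rose and 3 fell, where 1.93% of all genes rose and 0.879% fell. Dbp, Tef, both Rev-erb genes, Per3 and Cry2 rose, while Bmal1 of the activating arm, Cry1 and Nfil3 fell. The median over the 18 genes was 0.16. The clock is circadian, and the labels do not give the hour of sampling. Whether that hour differed between the dosed and vehicle groups was not tested, so the clock differences are not assigned to the dose.

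Among output factors, Dbp read 9.69, 10.07 and 9.34 (log2, as are all levels given here) on the 3 arrays at 55 mg/kg and 5.80, 6.34, 5.96, 5.97 and 5.73 on the 5 vehicle arrays. The groups lay far apart. The difference for Dbp was 3.74 ± 0.27 (SE; limma adjusted p = 4.28e-07), or 13.3-fold. Tef, a related factor, rose by 0.74 ± 0.10, from 8.47 ± 0.16 (SD, n = 5) to 9.21 ± 0.13 (SD, n = 3). Hlf, the remaining member of that family, differed by 0.02 with a 95% confidence interval of -0.28 to 0.32 and was not called. Nfil3, which binds the same sites as a repressor, read 9.15, 8.59 and 8.76 at 55 mg/kg against 9.68, 10.04, 9.70, 10.37 and 10.65 in vehicle, and fell by 1.25. Its groups did not overlap, although Nfil3 was not called without dosed replicate 2 (adjusted p = 0.0528).

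Both Rev-erb genes, which repress Bmal1, rose. Nr1d1 read 9.10, 9.23 and 9.11 at 55 mg/kg and 6.42, 7.72, 6.66, 6.67 and 6.39 in vehicle, a difference of 2.38 ± 0.29 (adjusted p = 0.000176). Nr1d2 read 10.09, 10.21 and 10.05 against 8.14, 9.18, 8.40, 8.38 and 8.32, a difference of 1.64 ± 0.17. For both, vehicle replicate 2 was the highest vehicle array and still lay below all dosed arrays. Among the Per and Cry genes, Per3 rose by 1.75 ± 0.23, with 7.42, 6.86 and 6.46 at 55 mg/kg against 4.85 to 5.51 in vehicle, and Cry2 rose by 1.01 ± 0.11. Cry1, the other cryptochrome, fell by 0.78 ± 0.18, and was not called when any 1 dosed replicate was left out (adjusted p = 0.0665 to 0.0871). Per1 (0.30) and Per2 (-0.09) were not called.

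In the activating arm, Bmal1 read 7.01, 6.95 and 7.49 at 55 mg/kg and 8.70, 7.90, 8.58, 8.64 and 8.40 in vehicle, and fell by 1.29 ± 0.23 (adjusted p = 0.00469). Npas2 read 7.86, 7.77 and 7.84 against 8.83, 8.65, 8.68, 8.72 and 8.74. These values barely varied within either group and did not overlap. The Npas2 difference of -0.90 ± 0.24 missed the threshold in the model of all 6 groups (adjusted p = 0.0517) and passed it in the fit of these 8 arrays alone (adjusted p = 0.000132) and without 881 mg/kg replicate 2 (0.0155). Clock (-0.34) and Rora (-0.54) were lower without being called. Rora, at an adjusted p of 0.0559, was called without vehicle replicate 4 (0.0357) or 881 mg/kg replicate 2 (0.0392). Bhlhe40 (0.60), Bhlhe41 (0.34) and Usp2 (-0.02) were not called either.

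**Figure D2:**
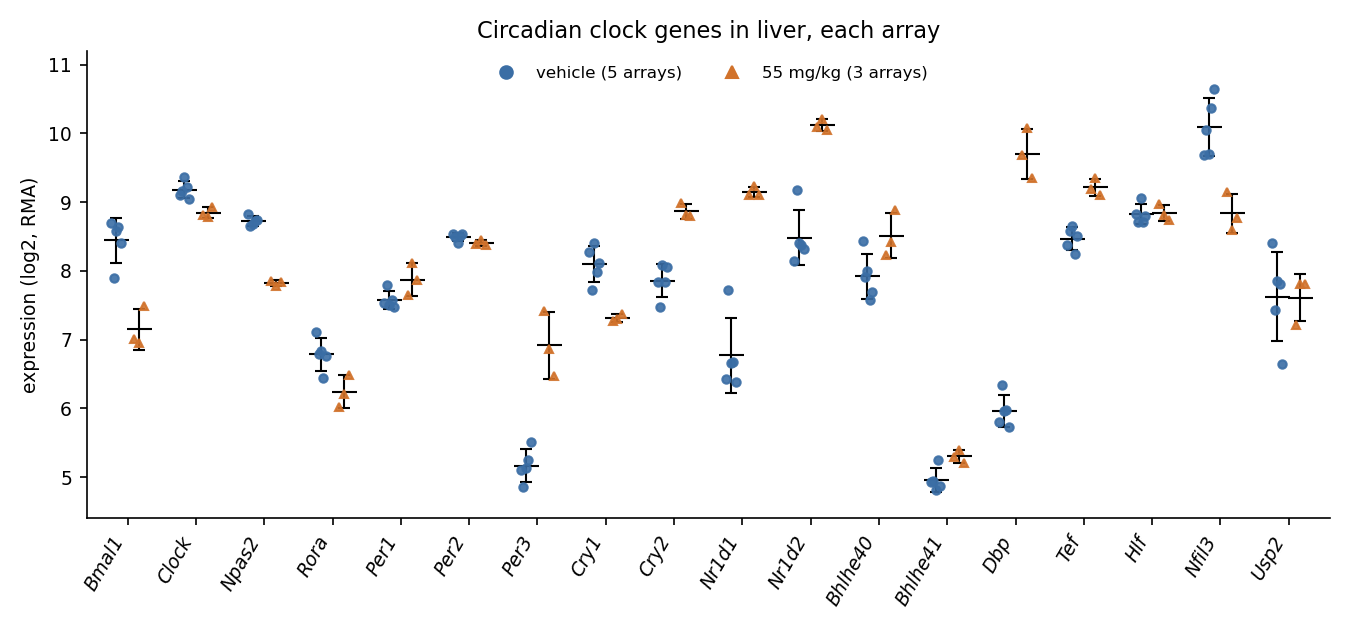
Log2 expression (vertical axis) of the 18 measured clock genes on each array, with circles for the 5 vehicle arrays, triangles for the 3 arrays at 55 mg/kg, a bar at the mean and whiskers of 1 SD. Dbp, Nr1d1, Nr1d2, Per3, Cry2 and Tef stand higher at 55 mg/kg and Bmal1, Cry1 and Nfil3 lower, with no overlap between the groups for any of these 9 genes.

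Other probe sets of the called clock genes did not all move. For Nr1d2, another 2 probe sets gave 0.00 and 1.48, for Tef 0.03 and 0.88, for Cry2 0.06 and for Per3 0.11. The values above come from the brightest probe set of each gene.

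Clock factors bind short DNA elements, so the 250 bases before the annotated start of the clock genes were searched on both strands for 3 of them. These were the E-box CACGTG, bound by Bmal1 with its partners, the D-box TTATGNAA, bound by Dbp, Tef, Hlf and Nfil3, and TAGGTCA, a core bound by Rev-erb and Ror receptors. RefSeq promoters on GRCr8 were at hand for 16 of the 18 genes. The E-box stood in 3 of them (Tef, Bhlhe40 and Bhlhe41), against 5.59% of 33469 promoters of the same length. The D-box stood in 1 (Per2), against 3.28%, and the receptor core in 1 (Bmal1), against 2.26%. The sequences of Bmal1 and Tef, which moved in opposite directions and hold a match each, and of Dbp, which changed most, are shown 5′ to 3′ on the plus strand, with matches in capitals.
Bmal1, chr1:176766078-176766327, with the receptor core starting 16 bases before the start: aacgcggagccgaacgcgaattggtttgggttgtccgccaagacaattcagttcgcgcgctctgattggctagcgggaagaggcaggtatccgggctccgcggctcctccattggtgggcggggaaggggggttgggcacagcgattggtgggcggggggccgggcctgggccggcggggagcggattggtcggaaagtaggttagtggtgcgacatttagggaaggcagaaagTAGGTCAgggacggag
Tef, chr7:115206577-115206826, with the E-box starting 198 bases before the start: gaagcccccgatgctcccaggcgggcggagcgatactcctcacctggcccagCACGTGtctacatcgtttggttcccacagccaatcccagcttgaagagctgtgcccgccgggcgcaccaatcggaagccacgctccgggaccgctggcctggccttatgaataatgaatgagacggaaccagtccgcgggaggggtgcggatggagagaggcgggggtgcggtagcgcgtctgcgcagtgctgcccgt
Dbp, chr1:105312006-105312255, with none of the 3 motifs: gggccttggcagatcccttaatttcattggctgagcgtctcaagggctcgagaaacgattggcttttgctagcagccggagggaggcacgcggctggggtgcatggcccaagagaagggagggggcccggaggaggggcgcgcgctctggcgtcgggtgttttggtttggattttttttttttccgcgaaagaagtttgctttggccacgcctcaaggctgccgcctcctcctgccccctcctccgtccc
A match describes these letters only, and the lack of one says that the letters are not in this window.

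Outside the clock, the strongest rise was that of Hsd17b2, which oxidises active estrogens and androgens to less active forms and is counted here among male-biased rat liver genes. Hsd17b2 read 13.10, 13.10 and 12.62 at 55 mg/kg against 10.39, 10.86, 10.34, 10.45 and 10.42 in vehicle. All dosed arrays lay above all vehicle arrays, and the difference for Hsd17b2 was 2.44 ± 0.20 (adjusted p = 1.14e-06), or 5.44-fold. It was the 1 called member of the 20 measured male-biased genes, whose median was -0.015, and none of 16 measured female-biased genes was called. Cers6, a ceramide synthase, rose by 1.45 ± 0.18, from 7.78 ± 0.38 to 9.23 ± 0.21, and Pdzrn3, a ubiquitin ligase, by 1.19 ± 0.17. Mt2A, a metallothionein that binds zinc and other metals, read 14.02, 14.25 and 14.04 against 11.37, 13.51, 12.98, 12.85 and 12.58, and rose by 1.45 ± 0.29. Vehicle replicate 1 was its lowest array, and Mt2A was not called without dosed replicate 2 (adjusted p = 0.0635). It was not called in the fit of the 8 arrays alone either (0.0567).

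A pair of strong rises lay at the edge of the threshold. Cish, a feedback inhibitor of cytokine and growth hormone signalling induced by STAT5, read 8.31, 8.23 and 8.69 at 55 mg/kg against 6.61 to 6.83 in vehicle, a clear gap between tight groups, and rose by 1.65 ± 0.44 (adjusted p = 0.04995). Leaving out any 1 of the 8 arrays ended the call of Cish (adjusted p = 0.0668 to 0.19), whereas the fit of the 8 arrays alone gave 3.92e-05. The other probe set of Cish gave 1.25 and was not called (0.137), nor was the mean of its probe sets (0.0715). Socs2, another STAT5 target, was lower by 0.71 and not called, and Igf1 differed by -0.09 (95% confidence interval -0.24 to 0.06). Nfe2, an erythroid factor, rose by 1.58 ± 0.42 (adjusted p = 0.04995), but its groups overlapped: vehicle replicate 1 read 6.90 and dosed replicate 1 read 6.89. Without dosed replicate 2, which read 8.57, the change of Nfe2 was 1.08 (adjusted p = 0.286), and it was not called without the other dosed replicates or without vehicle replicates 2, 3, 4 or 5 either (0.05 to 0.115). In the fit of the 8 arrays alone, Nfe2 was not called (0.0567).

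Among genes that fell, Cdkn1a, the cyclin-dependent kinase inhibitor p21, read 7.85, 7.97 and 8.41 at 55 mg/kg and 10.31, 10.28, 10.76, 10.61 and 9.61 in vehicle. The highest dosed array lay more than 1 log2 unit below the lowest vehicle array, and the difference for Cdkn1a was -2.24 ± 0.22 (adjusted p = 1.09e-05). Its other probe set gave -0.65 and was called too. Of 14 measured p53 response genes, Cdkn1a fell, the apoptosis gene Bbc3 rose by 0.55 ± 0.11, and Mdm2, the p53 ubiquitin ligase, differed by 0.18 (95% confidence interval -0.03 to 0.38). Bbc3 was not called without dosed replicate 2 (adjusted p = 0.0553) or 3 (0.0817).

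Chka, the choline kinase that starts phosphatidylcholine synthesis, read 9.17, 9.45 and 9.35 against 10.78, 10.72, 11.11, 10.76 and 10.72. Both groups of Chka were tight and far apart, with a difference of -1.50 ± 0.12 (adjusted p = 1.14e-06). Sdc4, a cell-surface heparan sulfate proteoglycan, fell by 1.11 ± 0.10 (adjusted p = 2.23e-06). Lgalsl, a galectin-like protein, fell by 1.28 ± 0.16, and Syne1, a nuclear envelope anchor, by 0.76 ± 0.07, although the other 3 probe sets of Syne1 (-0.23 to -0.07) were not called. Slc34a2, a sodium-phosphate cotransporter, fell by 1.39 ± 0.30 and was not called when any 1 dosed replicate was left out (adjusted p = 0.053 to 0.0856). The receptors Avpr1a for vasopressin (-1.03 ± 0.20) and Egfr for epidermal growth factor (-0.93 ± 0.20) fell as well, and so did Tfrc, the transferrin receptor. Egfr was not called without dosed replicate 2 (adjusted p = 0.0792) or 3 (0.0582), and its other probe sets gave -1.01, which was called, and 0.16.

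Immediate early genes are transcribed soon after a stimulus, without new protein synthesis. Of 25 measured, 1 fell and none rose. Egr1 read 7.83, 8.14 and 7.92 at 55 mg/kg against 9.90, 10.15, 10.06, 10.61 and 9.47 in vehicle, without overlap, and fell by 2.07 ± 0.29 (adjusted p = 0.000531). Dusp1, a phosphatase of MAP kinases, stood higher by 1.23 ± 0.38, with all 3 dosed arrays (10.81, 10.95 and 11.39) above the vehicle range of 9.45 to 10.47, but did not pass (adjusted p = 0.0961). Dusp1 was called in the fit of the 8 arrays alone (0.0182) and with array weights (0.0231). Myc was higher by 0.82 and not called.

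Among the foreign-compound lists, that of CAR and PXR targets held the most called genes. Its member Ces2c was the 1 called gene in the NRF2 list and in that of carboxylesterases and serine hydrolases. Its member Ugt2b1 was the 1 called gene among glucuronosyltransferases and sulfotransferases. Of 26 measured CAR and PXR targets, 4 rose and none fell, where 1.93% of all genes rose, and the list median was 0.15 against 0.013 for all genes. Ces2c, a carboxylesterase, read 10.24, 9.79 and 9.99 against 8.76, 8.92, 8.75, 8.87 and 8.82. The vehicle arrays were close together and the dosed arrays lay above them all, a difference for Ces2c of 1.18 ± 0.21 (adjusted p = 0.00451). The efflux pump gene Abcb1a rose by 0.68 ± 0.15, the cytochrome P450 reductase gene Por by 0.65 ± 0.16 and the glucuronosyltransferase gene Ugt2b1 by 0.59 ± 0.13. Abcb1a was not called without dosed replicate 2 (adjusted p = 0.107) or 3 (0.0846). Por was not called without any 1 dosed replicate or without vehicle replicate 1 or 2 (0.0683 to 0.153), nor Ugt2b1 without any 1 dosed replicate or vehicle replicate 2 (0.053 to 0.107). The other probe sets of Abcb1a (0.64) and Por (0.50) were not called, nor was the mean of the Por probe sets (adjusted p = 0.108).

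Several classical markers of foreign-compound exposure were not called at 55 mg/kg. The log2 differences, each with a 95% confidence interval, were 0.41 (-0.28 to 1.10) for the efflux pump Abcc3, 0.27 (-0.02 to 0.56) for Cyp3a23-3a1, 0.30 (-0.42 to 1.01) for Cyp1a1 and -0.05 (-0.23 to 0.13) for Cyp1a2. Cyp2c11, the main male-specific P450 of rat liver, read 14.30 ± 0.08 at 55 mg/kg and 14.28 ± 0.10 in vehicle. None of 13 measured AhR targets and none of 19 glutathione transferases was called. Of 27 measured NRF2 targets, the 1 called was Ces2c, which also sits in the CAR and PXR list, while Nqo1 (0.14, -0.39 to 0.68), Hmox1 (0.15, -0.22 to 0.51) and Gclc (-0.18, -0.41 to 0.05) were not. Gsta3, a glutathione transferase, read 6.85, 8.54 and 8.72 around a vehicle range of 7.78 to 8.13, so dosed replicate 1 lay below and the others above. Bche, the plasma cholinesterase gene, differed by 0.01 (-0.25 to 0.27), and the carboxylesterase Ces1d by -0.33 (-0.60 to -0.07) without being called.

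Slc6a6, which imports taurine used for bile acid conjugation and osmotic balance, read 9.11, 8.26 and 8.005 at 55 mg/kg against 10.41, 10.73, 10.09, 10.13 and 10.13 in vehicle. Its groups did not overlap, and Slc6a6 fell by 1.84 ± 0.24 (adjusted p = 0.000331), with a like change in its other probe set (-1.74). It was the 1 called gene of 15 measured genes of taurine and sulfur amino acids.

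Of 28 measured genes of fatty acid and triglyceride synthesis, 1 rose and 1 fell, and both encode lipins, the phosphatidate phosphatases of triglyceride synthesis. Lpin1 read 9.33, 9.85 and 9.74 against 11.39, 11.25, 11.40, 11.74 and 10.30, and fell by 1.57 ± 0.25 (adjusted p = 0.00227). Vehicle replicate 5 was its lowest vehicle array and still lay above the dosed arrays. Lpin2 rose by 0.62 ± 0.16 (adjusted p = 0.0496), with a call that ended without any 1 dosed replicate or without vehicle replicates 2, 3, 4 or 5 (0.0563 to 0.205), and its other probe set gave 0.04. Scd, the stearoyl-CoA desaturase, stood lower by 1.93 ± 0.54 with no overlap (8.91 to 10.03 against 10.24 to 12.15). It was not called (adjusted p = 0.059), nor was it under 14 of 19 alternatives. Scd was called in the fit of the 8 arrays alone (0.026) and with array weights (0.0253). It was also called without vehicle replicate 4 (0.0479) or 881 mg/kg replicate 2 (0.0164). Fasn (-0.34) and Elovl6 (-0.29) were not called.

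Of 34 measured PPAR alpha targets, 2 fell: Angptl4, an inhibitor of lipoprotein lipase, by 1.17 ± 0.27, and Cpt1b, a carnitine palmitoyltransferase, by 0.46 ± 0.12. Angptl4 read 9.89, 10.34 and 10.45 against 11.50, 11.62, 11.48, 11.52 and 10.87, without overlap. Its call ended without any 1 dosed replicate or without vehicle replicates 2, 3 or 4 (adjusted p of Angptl4 0.0512 to 0.134). Cpt1b, at an adjusted p of 0.04995 and with overlapping groups, was not called without any 1 dosed replicate or without vehicle replicates 1, 3 or 4 (0.0894 to 0.206). Pdk4 (-0.96, adjusted p = 0.0648), Plin2 (-0.62, 0.0917) and Cyp4a1 (-0.30) were lower and not called. Of 19 alternatives, 16 did not call Pdk4 either and 15 did not call Plin2. Both were called in the fit of the 8 arrays alone (0.00977 and 0.0197) and with array weights (0.036 and 0.0206). Pdk4 was also called without vehicle replicate 5 (0.0498), and Plin2 without 881 mg/kg replicate 2 (0.023). The list median was -0.049.

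Of 24 measured genes of bile acid synthesis and transport, 2 rose. Cyp8b1, the sterol 12-alpha-hydroxylase that sets the share of cholic acid, read 13.05, 13.17 and 13.01 at 55 mg/kg against 12.35, 11.55, 11.87, 12.25 and 12.26, and rose by 1.02 ± 0.20 (adjusted p = 0.00853, and 0.0546 without dosed replicate 2). Amacr, the racemase of branched fatty acids and bile acid intermediates, read 13.53, 13.56 and 13.61 against 13.05, 13.08, 13.01, 12.99 and 12.99, and rose by 0.55 ± 0.09 (adjusted p = 0.00241). Both groups of Amacr were tight and well apart. Cyp7a1, the rate-limiting enzyme of the pathway, stood higher by 1.42 ± 0.38, with 12.27, 12.39 and 12.63 above a wide vehicle range of 9.74 to 11.82, and missed the threshold (adjusted p = 0.0514). Over the alternatives the adjusted p of Cyp7a1 ran from 0.0312 to 0.188, with 0.0363 without vehicle replicate 4 and 0.0405 without 881 mg/kg replicate 2. In cholesterol synthesis, 1 of 20 measured genes rose, the sterol carrier Stard4, by 0.58 ± 0.14. Stard4 was not called without dosed replicate 2 or 3 or vehicle replicate 2 or 4 (0.0673 to 0.168), and its other 2 probe sets gave 0.07 and 0.18.

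Other lists held few called members. Of 32 genes of endoplasmic reticulum and integrated stress, 2 rose: Chac1, which degrades glutathione, by 1.15 ± 0.22, and Atf4, a factor that induces it, by 0.38 ± 0.10. Chac1 read 8.41, 9.34 and 9.41 against 7.70 to 8.27, with dosed replicate 1 closest to vehicle, and was not called without dosed replicate 2 (adjusted p = 0.0619) or 3 (0.0581). Atf4 was not called without dosed replicate 2 or 3 or vehicle replicates 1, 2, 3 or 5 (0.0521 to 0.212). Of 23 genes of gluconeogenesis and fasting, the factor Klf15 rose by 0.81 and the glucocorticoid target Tsc22d3 fell by 0.83. Klf15 was not called without any 1 dosed replicate or vehicle replicates 2, 3, 4 or 5 (0.0507 to 0.103), nor Tsc22d3 without dosed replicate 1 (0.0606). The other 2 probe sets of Klf15 gave -0.00 and 0.38, neither called, and the mean of its probe sets was not called (0.16).

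Of 26 acute phase and complement genes, the receptor Il1r1 (0.82) and the plasma protein Orm1 (0.63) rose and the receptor Il6r (-0.51) fell. Il1r1, whose groups overlapped, was not called without dosed replicate 1 or 3 or vehicle replicate 2 or 3 (adjusted p = 0.0541 to 0.142), and its other 2 probe sets gave 0.26 and 0.03, neither called. Orm1 was not called without any 1 dosed replicate or vehicle replicates 1, 2 or 3 (0.0565 to 0.131), nor Il6r without dosed replicate 3 (0.111). Of 17 thyroid hormone response genes, the receptor Thrb rose by 0.45, was not called without dosed replicate 2 (0.0922) or 3 (0.0564), and had 3 further probe sets that gave -0.12, -0.08 and 0.51, none called.

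No member was called in the lists of cell cycle genes (35 measured), heat shock and protein folding (14), interferon response (23), amino acid breakdown and urea cycle (38), heme synthesis and breakdown (14), ribosomal proteins (26) or the respiratory chain and ATP synthase (36). Their medians lay between -0.12 and 0.057. Across all 38 lists, 23 members rose (3.28%) and 13 fell (1.85%) among 702 measured, against 1.93% and 0.879% of all genes, and 364 of the 400 called genes belonged to no list.

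**Figure D3:**
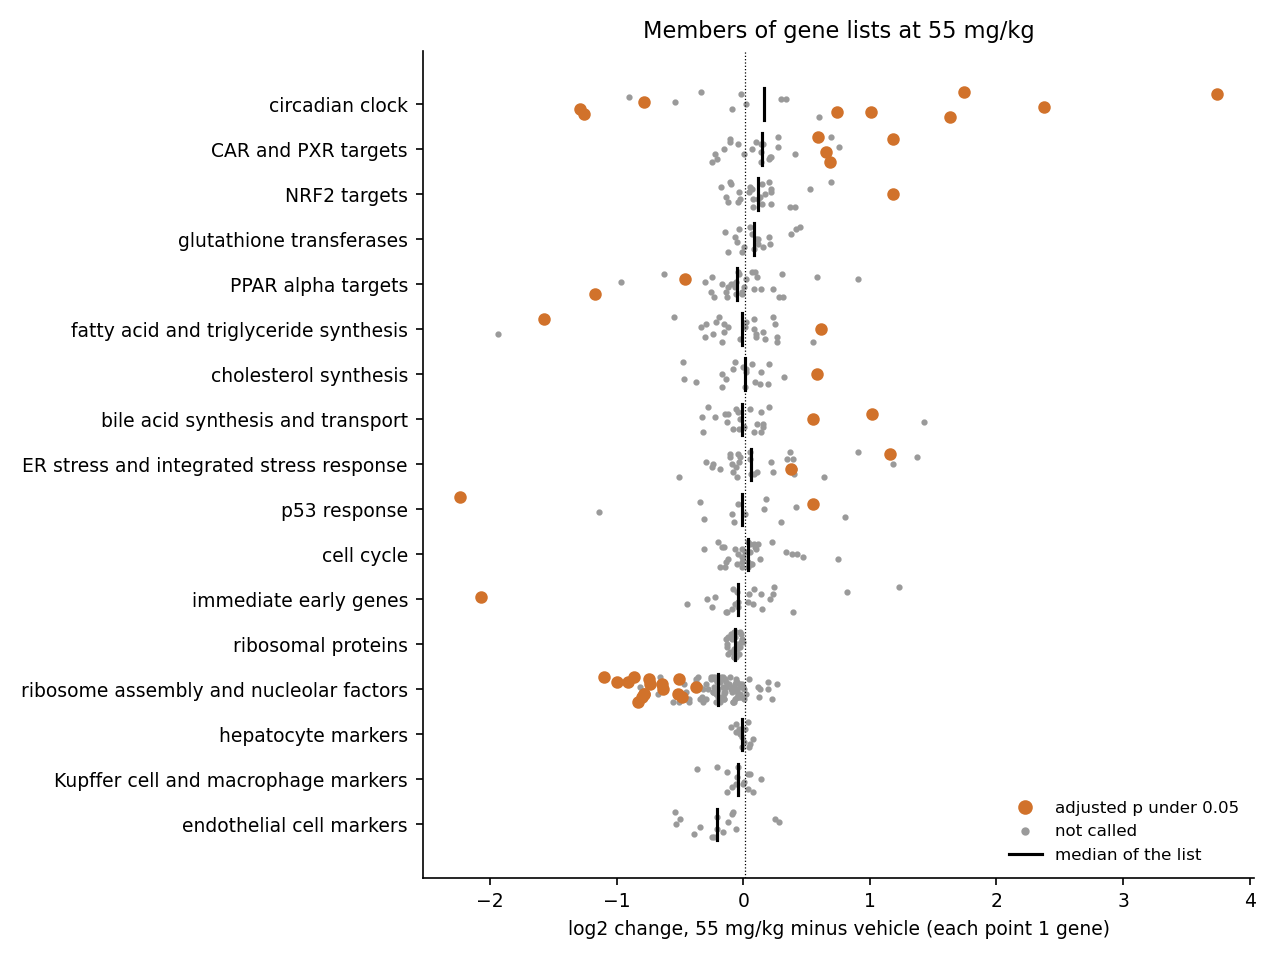
Log2 change at 55 mg/kg minus vehicle (horizontal axis) of each measured member of 17 gene lists, with called members in orange, other members in grey, the list median as a black bar and the median of all genes (0.013) as a dotted line. Clock genes spread widely to both sides, while ribosome assembly factors lie mostly left of the line and ribosomal proteins close to it.

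Among the called genes outside the lists, factors that process ribosomal RNA and assemble ribosomal subunits recurred. A list of 110 such genes was drawn up after the values were seen and is given as a description. Of 107 measured, 16 fell and none rose, where 0.879% of all genes fell and 1.93% rose, and the median was -0.20 against 0.013 for all genes. Nop58, a core protein of box C/D small nucleolar ribonucleoproteins, read 8.71, 9.19 and 9.03 at 55 mg/kg against 9.67, 10.17, 10.57, 10.24 and 9.72 in vehicle. The dosed arrays lay below all vehicle arrays, and the difference for Nop58 was -1.10 ± 0.23 (adjusted p = 0.0125). Its partner Nop56 fell by 0.78 ± 0.16, Tsr1, a 40S maturation factor, by 0.997 ± 0.18, Gar1, a box H/ACA protein, by 0.91 ± 0.22, and Mdn1, a large ATPase of 60S maturation, by 0.83 ± 0.14. Nol8, Wdr43, Wdr3, Wdr75, Gtpbp4, Mphosph10, Mphosph6, Nip7, Ddx10, Ddx18 and Ddx21 fell by 0.37 to 0.86.

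The vehicle arrays were not uniform for these genes: replicate 3 was the highest vehicle array for all 16. Mdn1, Nol8, Tsr1 and Mphosph6 were called under each alternative run. Nop58 and Nop56 were not called without dosed replicate 1 (adjusted p = 0.0786 and 0.0978), nor Ddx10 without dosed replicate 2 (0.0681), nor Wdr43 without dosed replicate 2 (0.0922) or 3 (0.0563). Any 1 dosed replicate left out ended the calls of Gar1, Ddx18, Ddx21, Gtpbp4, Nip7 and Wdr3 (0.0527 to 0.203). Dosed replicates 1 and 2 did so for Mphosph10 (0.147 and 0.133), and 1 and 3 for Wdr75 (0.204 and 0.131). Single vehicle arrays did so for Gar1, Ddx21, Mphosph10, Nip7, Wdr3, Wdr75 and Gtpbp4 (0.0527 to 0.11), replicates 3 and 4 for each of these. Second probe sets of Ddx18 (-0.03), Mdn1 (-0.06), Wdr75 (-0.16), Nol8 (-0.23), Ddx21 (-0.26), Nop56 (-0.42), Mphosph10 (-0.56) and Gtpbp4 (-0.57) were not called, and that of Wdr43 (-0.81) was.

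**Figure D4:**
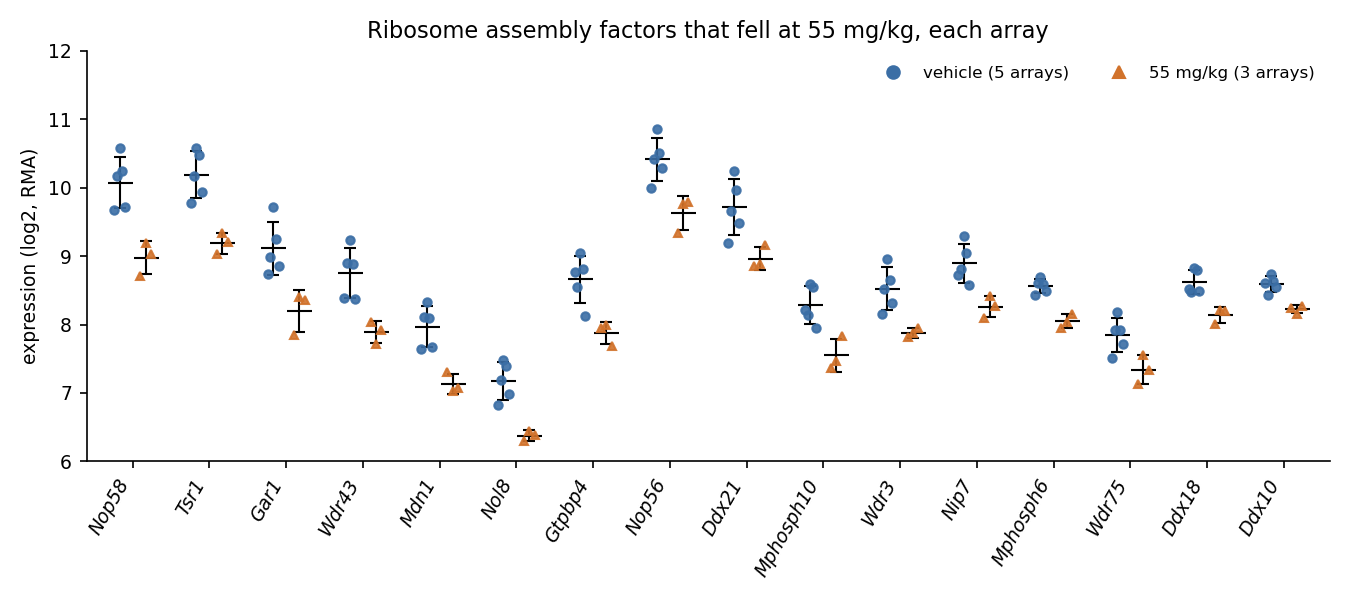
Log2 expression (vertical axis) of the 16 called ribosome assembly factors on each array, ordered by log2 change, with circles for vehicle, triangles for 55 mg/kg, a bar at the mean and whiskers of 1 SD. The mean at 55 mg/kg lies lower for each gene, by 1.10 for Nop58 and 0.37 for Ddx10, and in Wdr75 the groups overlap.

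Tubulins, the subunits of microtubules, were counted as a family after Tubb2a was seen to fall. Of 12 measured, 3 fell and none rose, where 0.879% of all genes fell; Tubb2a, which prompted the count, is 1 of the 3. Tubb2a read 10.42, 10.76 and 11.09 against 12.60, 12.40, 12.65, 12.69 and 12.39, without overlap, and fell by 1.79 ± 0.24 (adjusted p = 0.00037). Tuba4a fell by 0.77 ± 0.16 and Tubb4b by 0.60 ± 0.14, both without overlap. Tuba4a was not called without dosed replicate 1 (adjusted p = 0.053) or 3 (0.0528), nor Tubb4b without dosed replicate 1 (0.153) or 2 (0.0863) or vehicle replicate 4 (0.0673).

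Intraflagellar transport and Bardet-Biedl genes build and serve cilia and were likewise counted after their values were seen. Of 24 measured, 4 rose: Ift81 (0.67), Ift25 (0.66), Bbs2 (0.62) and Ift46 (0.38), where 1.93% of all genes rose, and the median was 0.17 against 0.013 for all genes. Bbs2 was not called without dosed replicate 3 (adjusted p = 0.122), nor Ift46 without dosed replicate 2 (0.0535). Ift25 was not called without any 1 dosed replicate or vehicle replicates 1, 2, 3 or 4 (0.0585 to 0.147), nor Ift81 without any 1 dosed replicate or vehicle replicates 1, 2 or 4 (0.053 to 0.18). Other probe sets gave 0.17 and 0.13 for Ift81, 0.09 for Ift46, and 0.41, which was called, and 0.07 for Ift25.

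Markers of the cell types that a piece of liver can hold were compared as the mean level of each list on each array. Hepatocyte markers (13 measured, none called) averaged 14.37 to 14.41 at 55 mg/kg and 14.36 to 14.43 in vehicle. The mean levels of endothelial markers (16 measured, none called) were 8.38 to 8.82 against 8.62 to 8.92, a difference of -0.20 (exact permutation test, two-sided, p = 0.179; the smallest possible with 3 against 5 arrays is 0.0357). Between arrays of the same replicate number, the endothelial difference was -0.10, -0.27 and -0.28, and replicate 1 was the highest of replicates 1 to 3 for endothelial as well as Kupffer cell markers in all 6 groups. The mean levels of stellate cell markers (20 measured) differed by -0.19 (exact p = 0.25). In bulk tissue, fewer cells of a type and less RNA per cell cannot be told apart. Of the stellate markers, the collagen Col5a1 was called at -0.39, but not without any 1 dosed replicate or vehicle replicates 1, 2, 3 or 5 (adjusted p = 0.0637 to 0.178), and its other probe set gave -0.06. Kupffer cell (15 measured), lymphocyte (17), bile duct (9) and blood cell markers (11) had no called member, with exact p from 0.429 to 0.893, nor had periportal (14) and fat and muscle markers (12). These p-values compare means and do not show like levels. Kupffer cell means were 10.42, 9.81 and 9.55 at 55 mg/kg against 9.79 to 10.16 in vehicle. Lymphocyte means were 6.46, 6.23 and 6.18 against 6.24 to 6.33. In both, dosed replicate 1 lay above the vehicle range and dosed replicate 3 below it.

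Of pericentral hepatocyte markers (13 measured), the glutamate transporter Slc1a2 rose by 0.53. Slc1a2 was not called without any 1 dosed replicate or vehicle replicates 2, 3, 4 or 5 (adjusted p = 0.0521 to 0.169), and its other probe set gave -0.03. Of pancreatic acinar markers (15 measured), the amylase Amy2a3 fell by 0.31 at a level of 3.50 to 4.00, and was not called without any 1 dosed replicate or vehicle replicate 2 (0.0565 to 0.101). The mean level of the acinar list was 5.57 to 5.61 against 5.61 to 5.66, a difference of -0.042 with the smallest exact p among the marker lists (0.0714). The Gapdh, beta-actin and hexokinase 3' minus 5' differences of the dosed and vehicle arrays overlapped (exact p from 0.5 to 0.893).

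Between 55 mg/kg and the next dose, 110 mg/kg, no gene was called (0.00% of 14217) by limma, and 387 genes (2.72%) had an unadjusted p under 0.05. The difference 110 minus 55 mg/kg was 0.33 for Dbp (95% confidence interval -0.31 to 0.97), 0.12 for Cdkn1a (-0.39 to 0.64), -0.89 for Slc6a6 (-1.46 to -0.32) and 1.07 for Abcc3 (0.30 to 1.85), none of which passed after adjustment. Between 55 and 881 mg/kg, the highest dose, 1004 genes were called (7.06%), 577 higher (4.06%) and 427 lower (3.00%) at 881 mg/kg, and 3166 (22.3%) had an unadjusted p under 0.05. That comparison uses the same 55 mg/kg arrays as the comparison with vehicle, so the values below are given side by side. Its counts were 464 without dosed replicate 1, 520 without dosed replicate 2, and 368 higher and 317 lower without 881 mg/kg replicate 2.

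Many of the leading genes at 55 mg/kg were not called between 55 and 881 mg/kg. Dbp differed from vehicle by 3.74, 4.07, 3.77, 4.50 and 3.83 at 55, 110, 220, 440 and 881 mg/kg, and the difference 881 minus 55 mg/kg was 0.09 (95% confidence interval -0.55 to 0.72). The same difference was -0.08 for Nr1d2 (-0.48 to 0.31), 0.29 for Per3 (-0.25 to 0.82), -0.11 for Cry2 (-0.37 to 0.14) and 0.15 for Tef (-0.08 to 0.38). It was 0.31 for Cdkn1a (-0.20 to 0.82), 0.26 for Chka (-0.03 to 0.54), -0.35 for Egr1 (-1.03 to 0.33), -0.01 for Syne1 (-0.19 to 0.16) and -0.07 for Angptl4 (-0.71 to 0.57). For Nr1d1 it was -0.996 (-1.67 to -0.32) and for Hsd17b2 -0.73 (-1.19 to -0.27), both toward vehicle and not called (adjusted p = 0.0677 and 0.0526). These intervals bound how far the doses can differ and do not show that they are equal. The differences from vehicle at all doses use the same 5 vehicle arrays.

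Another group went on changing with dose. Ces2c differed from vehicle by 1.18, 1.49, 2.14, 3.37 and 4.03 at the 5 doses, and stood 2.85 higher at 881 than at 55 mg/kg (2.37 to 3.34; adjusted p = 2.9e-06). Slc6a6 stood -2.12 from its level at 55 mg/kg (-2.70 to -1.55), Npas2 -1.70 (-2.27 to -1.13), Ugt2b1 1.02 (0.71 to 1.32) and Abcb1a 0.99 (0.63 to 1.34). Each of these 5 was called between the doses, also without 881 mg/kg replicate 2.

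Most of the largest differences between the doses were in genes not called at 55 mg/kg. The 5 named by rule as highest at 881 over 55 mg/kg were the aldo-keto reductase Akr1b7 (5.38), Abcc3 (3.26), Ces2c, the secreted proteoglycan Tsku (2.75) and Gsta3 (2.65). The 5 named as lowest were Dhrs7l1 (-3.86), Stac3 (-3.09), the methyltransferase Inmt (-2.97), the odorant-binding protein Obp3 (-2.77) and Serpina7 (-2.15), the thyroxine-binding globulin. Of these 10, Ces2c was called at 55 mg/kg in the model of all 6 groups. In the fit of the 8 arrays alone, Dhrs7l1 (0.91 above vehicle; adjusted p = 0.00453) and Akr1b7 (-0.52; 0.0405) were called at 55 mg/kg as well. Inmt (1.07) and Obp3 (0.76) also stood above vehicle at 55 mg/kg without being called, and Dhrs7l1, Inmt and Obp3 stood -2.95, -1.90 and -2.01 from vehicle at 881 mg/kg. Differences between the doses were also called for Gstp1 (2.33), Elovl6 (2.09), Nqo1 (1.64), Hmox1 (1.60), Mki67 (1.58), Fasn (1.48), Alas1 (1.42), Gsta4 (1.36) and Gclc (1.26), and for Hbb (-2.002) and Oat (-1.76). All of the differences between 881 and 55 mg/kg in this paragraph were called without 881 mg/kg replicate 2 too.

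A further group differed from vehicle at 55 mg/kg and not, or less, at 881 mg/kg. Cyp8b1 differed from vehicle by 1.02, 0.83, 0.61, 0.32 and -0.00 at the 5 doses, and the difference 881 minus 55 mg/kg was -1.02 (-1.48 to -0.56; adjusted p = 0.00898, and 0.0442 without 881 mg/kg replicate 2). Amacr went from 0.55 above vehicle at 55 mg/kg to -0.25 at 881 mg/kg, a difference of -0.80 (-1.01 to -0.60), and Pdzrn3 from 1.19 to 0.01, a difference of -1.18 (-1.58 to -0.78). Tfrc read 9.37, 9.57 and 9.45 at 55 mg/kg against 10.72, 10.27, 10.70, 10.64 and 9.98 in vehicle, and fell by 0.995 ± 0.20. Its groups did not overlap, and Tfrc was not called without dosed replicate 1 (adjusted p = 0.0531) or 3 (0.0507). The other probe set of Tfrc gave -0.78 at 55 mg/kg and was not called. At 881 mg/kg Tfrc stood 0.55 above vehicle, which is 1.54 above 55 mg/kg (1.07 to 2.01; adjusted p = 0.000482). Tubb4b (0.83), Slc1a2 (-0.59), Bbs2 (-0.66), Ift46 (-0.42) and Mphosph6 (0.46) were also called in the direction back toward vehicle, with and without 881 mg/kg replicate 2. Nol8 (0.75) and Sdc4 (0.38) were called with it and not without it (adjusted p = 0.0622 and 0.144).

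**Figure D5:**
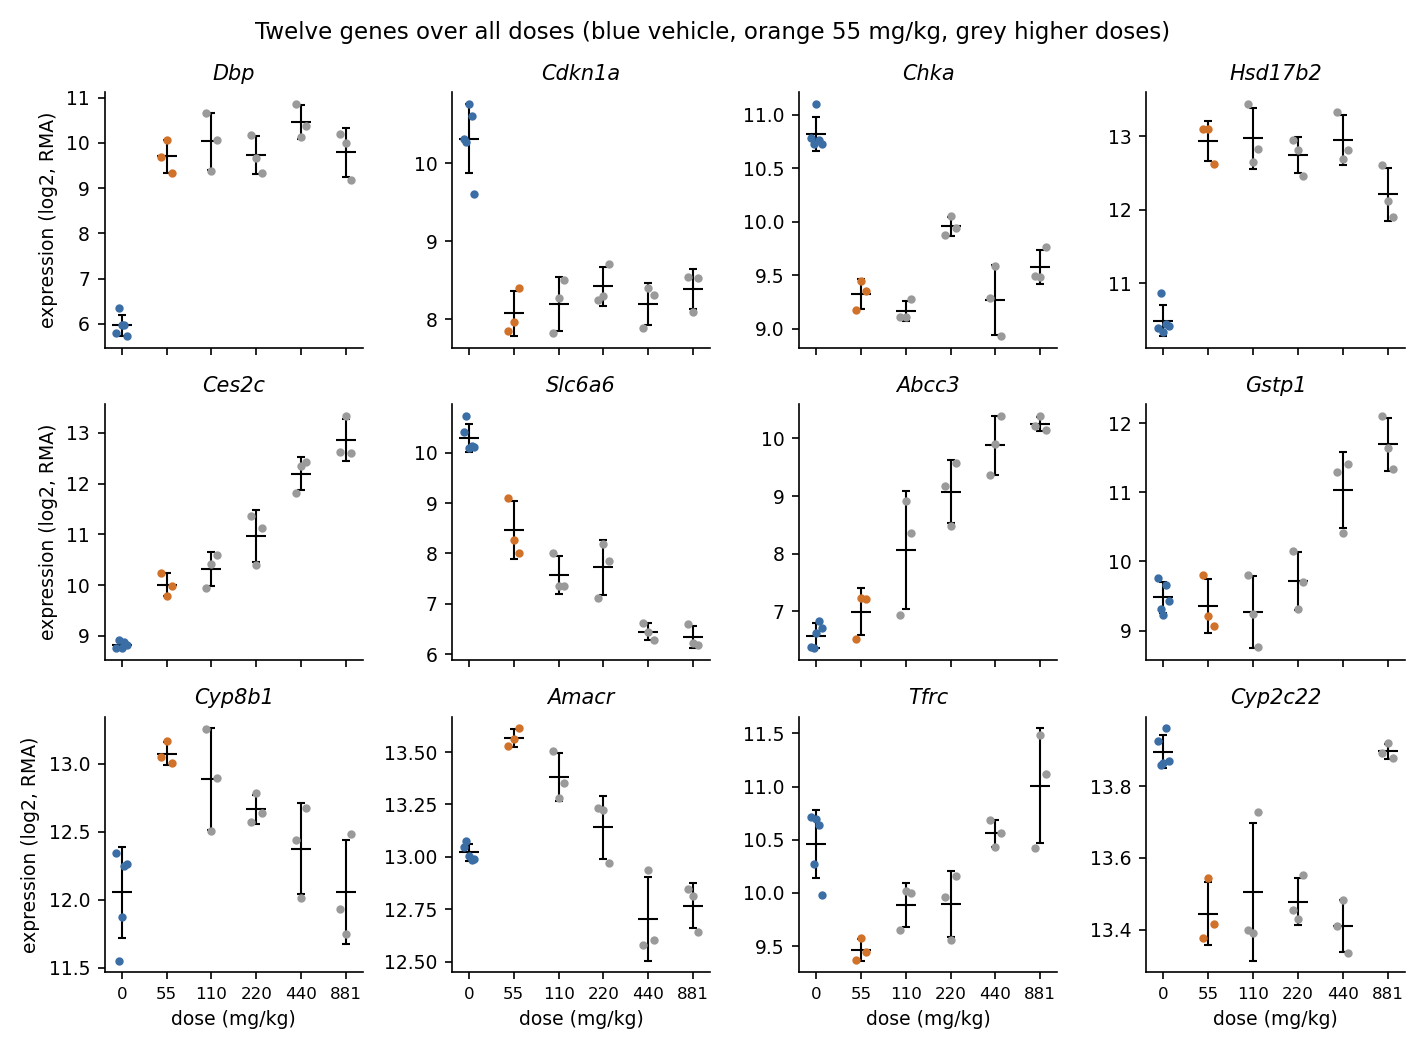
Log2 expression (vertical axes, scaled per gene) of 12 genes on each array at 6 dose levels (horizontal axes, mg/kg, evenly spaced), with a bar at the mean and whiskers of 1 SD; blue marks vehicle, orange 55 mg/kg and grey the higher doses. In the top row all dosed groups lie apart from vehicle, Ces2c and Slc6a6 go on changing with dose, Abcc3 and Gstp1 overlap vehicle at 55 mg/kg, and in the bottom row the 55 mg/kg arrays lie apart from both vehicle and 881 mg/kg.

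The contrast of 881 with 440 mg/kg shares no array with the comparison of 55 mg/kg with vehicle. Both come from the model of all 6 groups and share its estimate of the spread of each gene. The calls are therefore not independent, and the counts are given as a description. The contrast of 881 with 440 mg/kg includes 881 mg/kg replicate 2, which stood apart in the Gapdh difference, and no count without that array is given. It called 37 genes (0.260%), 19 higher at 881 mg/kg (0.134%) and 18 lower (0.127%), and 1510 (10.6%) had an unadjusted p under 0.05. Of the 19, 7 fell at 55 mg/kg and 2 rose, against 0.879% and 1.93% of all genes. Those that fell were Tubb2a, Nfil3, Pnrc1 (-0.86), Brd10 (-0.64), Cyp2c22 (-0.45), the arginine methyltransferase Prmt3 (-0.43) and the sulfotransferase Tpst2 (-0.40), and those that rose were Mnd1 (0.58) and Yeats4 (0.35). Cyp2c22, a P450, read 13.38, 13.54 and 13.41 at 55 mg/kg against 13.93, 13.86, 13.87, 13.96 and 13.87 in vehicle (adjusted p = 0.00344). Its groups did not overlap, and Cyp2c22 stayed -0.39, -0.42 and -0.49 from vehicle at 110, 220 and 440 mg/kg and was 0.00 from it at 881 mg/kg. Brd10 took a like course (-0.64, -0.59, -0.52, -0.66 and -0.01 at the 5 doses), though its other 2 probe sets gave 0.12 and -0.14 at 55 mg/kg.

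Of the 18 genes lower at 881 than at 440 mg/kg, Klf16 (0.51) and Slc37a4 (0.36), the glucose-6-phosphate transporter, rose at 55 mg/kg, and Lpin1 and Il6r fell. Of the genes named from both sets, Pnrc1 was not called at 55 mg/kg without dosed replicate 2 or 3 or vehicle replicate 1 or 4 (adjusted p = 0.0502 to 0.13), and its other probe set gave 0.04. Prmt3 was not called without any 1 dosed replicate or vehicle replicate 2 (0.0521 to 0.098), nor Mnd1 without dosed replicate 2 or 3 or vehicle replicate 2 or 4 (0.0616 to 0.137). Yeats4 was not called without any 1 dosed replicate or vehicle replicates 1, 2, 3 or 4 (0.0784 to 0.196; other probe set 0.10), nor Klf16 without any 1 dosed replicate or vehicle replicates 1, 2, 4 or 5 (0.0541 to 0.191), nor Slc37a4 without dosed replicate 1 (0.12) or 2 (0.0843).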

How the data were processed

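Liver RNA of male rats was measured on 20 one-colour Affymetrix arrays, each with its own label. The authors deposited 1 table of log2 values normalized by RMA, per the submitters' processing notes, and these were used unchanged. Of 31099 probe sets, 57 controls were left out. GEO's platform annotation gave 20826 of the other probe sets 1 gene symbol, 436 several and 9780 none, and 20758 matched RefSeq by gene ID. The table covers 14217 genes, 4525 of them with several probe sets, of which the brightest on average was taken. The number of arrays limits the precision.

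One limma model (version 3.58.1, R 4.3.3) was fitted to 6 groups and 20 arrays, with Benjamini-Hochberg adjustment over all genes and a threshold of 0.05. Marker means were compared by exact permutation (SciPy 1.17.1). Replicate numbers were not taken as pairs, and alternatives are given in the closing section.

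The members and gene lists were chosen with earlier results of these data known. The rule named the 12 called genes that moved most each way, 2 per list, a preset list, and the 5 that differed most each way between doses. Outside it, and chosen after their values were seen, were Clock, Rora, Per1, Per2, Cry1, Cry2, Tef, Hlf, Bhlhe40, Bhlhe41, Usp2, Por, Orm1, Gclc, Egfr, Tfrc, Avpr1a, Syne1, Igf1, Socs2, Brd10, Cyp2c22, Pnrc1, Tpst2, Mnd1, Prmt3, Yeats4, Klf16, Slc37a4 and the ribosome assembly, tubulin (other than Tubb2a) and cilium genes.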

Additional observations from a re-analysis of the deposited data

Results flagged for a closer look

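For each of the 126 genes described by name, the 5 vehicle arrays were searched for 1 array far from the other 4, and 9 genes had one; chance alone flags about 1 in 20 such groups. Vehicle replicate 2 was far above the others for Nr1d1 (7.72, others 6.39 to 6.67), Nr1d2 (9.18, others 8.14 to 8.40) and Hsd17b2 (10.9, others 10.34 to 10.45). All 3 genes rose at 55 mg/kg, so this array lay toward the dosed arrays and yet below them. Vehicle replicate 1 was high for Klf15 (9.60, others 8.82 to 8.91) and Socs2 (8.28, others 7.16 to 7.41). Replicate 3 was high for Chka (11.1, others 10.72 to 10.78) and replicate 4 for Gsta4 (11.5, others 11.39 to 11.43). Replicate 5 was high for Yeats4 (9.66, others 9.38 to 9.45) and low for Angptl4 (10.9, others 11.48 to 11.62).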

How the results depend on the processing

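The total of 400 called genes at 55 mg/kg (275 higher, 125 lower) lay within 1.5 times of itself under 8 of the alternatives that kept all arrays of the comparison: the 8 arrays alone, the mean of probe sets, every probe set, a minimum mean signal of 6, centring, quantile normalization, an intensity trend and the replicate block. The count of higher genes moved further under the block (180 against 275). A like total can hold other genes: the 8 arrays alone called 458, of which 305 were among the 400. The total was 842 with array weights (586 higher, 256 lower) and 730 with the Gapdh 3' minus 5' difference as a covariate (524 higher, 206 lower). The lowest weight, 0.22, fell on 881 mg/kg replicate 2, the array with the Gapdh difference of 5.24. These 2 fits are thus not separate from the one without that array, and each of the 3 called all of the 400. Leaving out single arrays moved it between 127 and 648 (81 to 463 higher, 46 to 185 lower). With the replicate number as a block it was 281 (180 higher, 101 lower), of which 231 were called without the block. The labels do not say what a number stands for, so same-numbered arrays were not treated as pairs. Such arrays at 55 mg/kg and in vehicle correlated at 0.18, -0.0026 and 0.079 in their deviations from the group means. Over all groups the median correlation was 0.14 for the same number against -0.050 for other numbers, and 15 of 18 arrays numbered 1 to 3 correlated best with their own number, 4 of them among the 6 at 55 mg/kg and in vehicle. Replicate 2 exceeded replicate 1 in the Gapdh and beta-actin 3' minus 5' differences in all 6 groups. These are hints from the data that a number may mark something shared, which the main model does not take into account. The count of 0 between 110 and 55 mg/kg held under each alternative run for it. The 1004 genes called between 881 and 55 mg/kg (577 higher, 427 lower) numbered 464 to 1127 without single arrays (259 to 627 higher, 205 to 500 lower). Of the 81 named genes called at 55 mg/kg, 43 lost their call without 55 mg/kg replicate 2 and 22 with the block (Amy2a3, Cish, Cpt1b, Cry1, Ddx18, Ddx21, Egfr, Gar1, Klf15, Klf16, Lpin2, Mnd1, Mphosph10, Nfe2, Nip7, Pnrc1, Slc34a2, Slc37a4, Stard4, Tubb4b, Wdr3 and Wdr75), while Cyp7a1, Obp3 and Rora were called with it (adjusted p = 0.0312, 0.0406 and 0.0388). The fit of the 8 arrays alone ended 10 of the 81 calls (adjusted p = 0.0521 to 0.0952). These were Amy2a3, Atf4, Cpt1b, Ddx21, Ift81, Mt2A, Nfe2, Orm1, Wdr75 and Yeats4. Of the 45 not called, 12 were called under some alternative. Where removing arrays lowered a count, fewer arrays entered the fit; otherwise the cause was not tested. All values are levels on arrays, so low signal and saturation limit what small differences can show.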
